A study of Mus musculus with 4 samples.

Results

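The genes of apical-basal polarity examined here were 10 chosen by name for their place in the 3 polarity complexes, out of 27179 genes in the deposited table. They are Crb3 and Patj of the Crumbs complex, Pard3, Pard6a, Pard6b, Pard6g, Prkci and Prkcz of the PAR complex, and Llgl2 and Scrib of the Scribble module. All 10 were found in the table, and all 10 passed the filter on low values, a mean normalized read count of at least 10 over the libraries. Messenger RNA was sequenced from the kidney medulla of mice on postnatal day 14, on a mixed C57BL/6 background. The knockout group held 2 mice of the genotype Actr3-fl/fl*Cdh16-Cre and the control group 2 wild type mice, and each mouse gave 1 library. The Actr3 product, Arp3, belongs to the Arp2/3 complex, which starts new branches on actin filaments. The Cdh16 promoter restricts Cre to tubule epithelium, so other cells of the medulla keep the gene. The labels do not say whether the controls carried a floxed allele or Cre. The comparison asked how the transcripts of the medulla differed between the genotypes.

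Epithelial cells keep an apical face toward the lumen and a basolateral face toward the tissue by means of 3 sets of proteins that exclude each other. The Crumbs complex, with the transmembrane protein CRB3 and the scaffolds PALS1 and PATJ, marks the apical membrane. The PAR complex, in which PAR3 and PAR6 bring atypical protein kinase C (aPKC) to the apical junction, phosphorylates LLGL and PAR1 proteins and so keeps them off the apical side, while the Scribble module (SCRIB, LLGL and DLG) holds the basolateral side. In the kidney tubule this asymmetry places channels and transporters on the correct face of the cell.

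Promoter sequences are shown for 5 of the 10 genes, 4 whose transcripts changed and Patj, whose did not pass the test. They are RefSeq windows of 300 bases on GRCm38.p6, from 250 bases before to 50 after the transcription start, given on the strand of the gene. A window was found for 7 of the 10 genes by gene ID, and the most upstream window of each gene is printed. Capitals mark the E-box letters CACCTG or their reverse complement CAGGTG, which Snail and ZEB repressors of epithelial genes bind.
Crb3, chr17:57061951-57062250, plus strand: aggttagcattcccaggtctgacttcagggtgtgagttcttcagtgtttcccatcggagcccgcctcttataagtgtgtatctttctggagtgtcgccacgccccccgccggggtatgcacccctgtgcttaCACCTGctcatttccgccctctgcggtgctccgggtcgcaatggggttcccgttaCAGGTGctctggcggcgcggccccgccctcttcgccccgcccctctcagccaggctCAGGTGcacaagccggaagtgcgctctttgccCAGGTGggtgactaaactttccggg
Patj, chr4:98395576-98395875, plus strand: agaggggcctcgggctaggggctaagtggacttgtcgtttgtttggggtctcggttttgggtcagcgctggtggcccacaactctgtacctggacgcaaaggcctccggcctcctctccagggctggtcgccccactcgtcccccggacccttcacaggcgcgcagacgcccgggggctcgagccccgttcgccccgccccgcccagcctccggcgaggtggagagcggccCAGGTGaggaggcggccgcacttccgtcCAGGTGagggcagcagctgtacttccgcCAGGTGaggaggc
Pard6b, chr2:168080754-168081053, plus strand: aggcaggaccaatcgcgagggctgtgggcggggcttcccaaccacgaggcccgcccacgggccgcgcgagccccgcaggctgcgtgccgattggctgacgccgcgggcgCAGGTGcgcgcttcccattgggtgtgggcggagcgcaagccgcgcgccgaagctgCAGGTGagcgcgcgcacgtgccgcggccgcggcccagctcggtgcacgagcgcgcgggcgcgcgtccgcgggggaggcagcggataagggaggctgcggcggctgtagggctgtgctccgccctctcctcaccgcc
Prkci, chr3:30995521-30995820, plus strand: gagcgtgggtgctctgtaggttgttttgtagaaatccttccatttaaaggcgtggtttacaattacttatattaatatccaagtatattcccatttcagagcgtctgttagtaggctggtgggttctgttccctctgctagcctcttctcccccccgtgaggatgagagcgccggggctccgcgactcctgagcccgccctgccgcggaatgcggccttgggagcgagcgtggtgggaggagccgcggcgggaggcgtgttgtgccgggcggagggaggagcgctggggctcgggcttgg
Prkcz, chr4:155361379-155361678, minus strand: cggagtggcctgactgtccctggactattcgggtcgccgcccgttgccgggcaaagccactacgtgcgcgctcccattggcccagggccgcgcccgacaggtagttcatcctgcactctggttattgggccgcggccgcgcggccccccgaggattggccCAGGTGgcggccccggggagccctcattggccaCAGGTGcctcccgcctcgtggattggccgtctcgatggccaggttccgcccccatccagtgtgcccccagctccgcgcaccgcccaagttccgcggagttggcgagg

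The Crb3 window held 4 such E-boxes, whose first bases lay at -118, -63, -7 and 26 from the start. Patj held 3, at -19, 10 and 38, Pard6b held 2, at -141 and -86, and Prkcz held 2, at -90 and -57. The printed Prkci window held none, and neither did the most upstream windows of Pard3 and Pard6a, although a second window of Pard3 held 3 and one of Pard6a held 1. Of 32851 promoter windows of the same length, 20.2% held at least 1 match on either strand, 2.88% at least 2, 0.365% at least 3 and 0.0548% at least 4. The motif AACCNGGTT, bound by Grainyhead-like activators, was in none of the 14 windows of the 7 genes and in 0.271% of all windows. The RefSeq start of Prkcz lies 67 bases upstream of the furthest Prkcz start in GENCODE M21, so the window's bases after the start matched no GENCODE transcript on either strand, and the Prkcz offsets rest on the RefSeq start alone. A further Crb3 start in GENCODE M21, at 57059105, lies upstream of the RefSeq start at 57062201, and no window there was examined. The Crb3 offsets hold for the RefSeq start only. These matches describe letters in a window and say nothing of binding.

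Among 16253 genes tested with limma, 51.2% were called (Benjamini-Hochberg adjusted p under 0.05), 26.3% higher and 24.9% lower in the knockout-labelled libraries. The targeted gene went against its label: Actr3 gave normalized read counts of 12587 and 12480 in the knockout-labelled libraries and 8065 and 7275 in the wild-type-labelled ones, a log2 difference of 0.71 (standard error 0.082, limma adjusted p = 0.000494). A count over the whole gene cannot show the loss of an exon, so the groups are named KO-labelled and WT-labelled, and every direction below rests on those labels. Reads per library ranged from 36482238 to 40784436. Log2 values correlated across genes at 0.990 between the KO-labelled and 0.989 between the WT-labelled libraries, against at most 0.916 between groups (genes are not independent replicates). Markers of all medullary segments were detected, and none of the 92 cell type markers examined was at 0 in any library.

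Of the 10 polarity genes, 2 rose, 3 fell and 5 did not pass the test. That share of 50% called is close to the 51.2% over all tested genes. The values below describe the genes singly and by paralog family. The median log2 difference of the 10 genes was -0.05, against 0.003 for all tested genes, and their median absolute log2 difference was 0.316, against 0.409. Ranges of the 2 groups did not overlap for 6 of the 10 genes, against 78.5% of all tested genes. Pard6g and Prkci rose, and Pard6b, Prkcz and Crb3 fell. In bulk tissue, fewer cells of a type and less RNA per cell cannot be told apart.

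**Figure D1:**
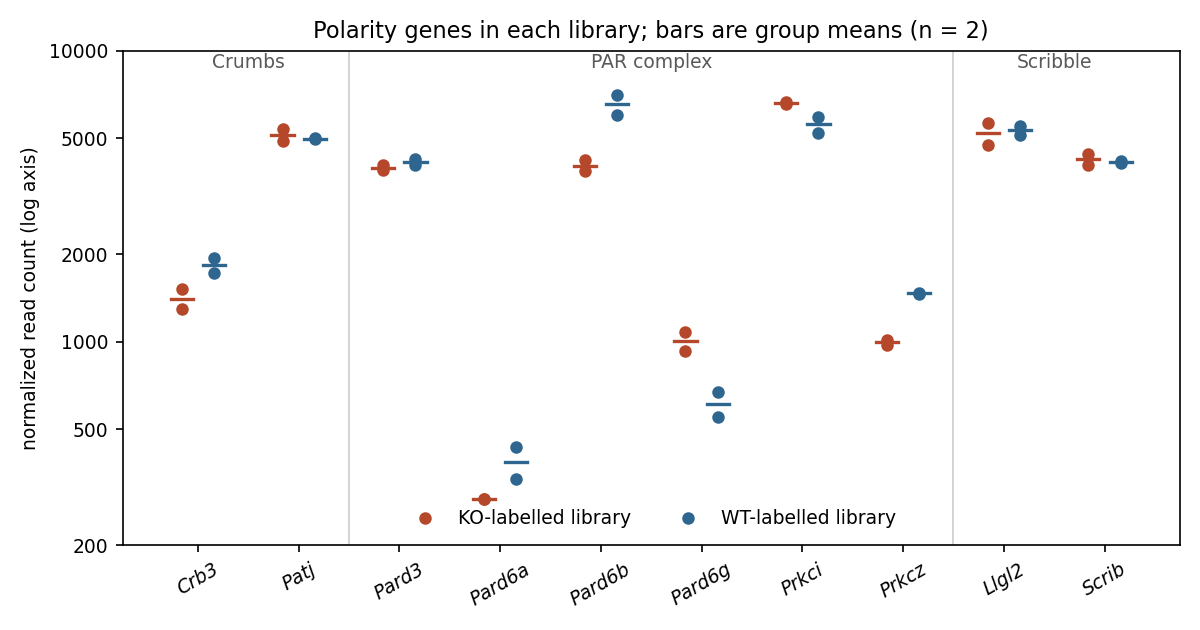
Normalized read counts (log axis) of the 10 polarity genes in each KO-labelled (left, red) and WT-labelled (right, blue) library, grouped by complex; points are libraries and bars group means (n = 2 each). Pard6b, Prkcz and Crb3 lie lower and Pard6g and Prkci higher in KO-labelled medulla, while the points of Patj, Llgl2 and Scrib interleave.

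In the Crumbs complex the transcript of the transmembrane protein fell and that of its scaffold did not pass the test. Crb3 encodes the Crumbs protein of most mammalian epithelia, whose short cytoplasmic tail recruits PALS1 and PAR6. It gave normalized read counts of 1516 and 1298 in KO-labelled and 1730 and 1933 in WT-labelled medulla. Both KO-labelled values were below both WT-labelled ones. The means were 1407 ± 154 in KO-labelled and 1831 ± 144 in WT-labelled medulla (SD, n = 2 each), a log2 difference of -0.38 (standard error 0.112, limma adjusted p = 0.0261). The call was lost without KO replicate 2 (log2 difference -0.27, adjusted p = 0.145), without WT replicate 2 (-0.30, adjusted p = 0.124) and with no variance trend (adjusted p = 0.0836). Exons of Crb3 share 14 bases with those of Dennd1c on the opposite strand, 0.895% of its exonic length, and no other member shared exonic bases with another gene in GENCODE M21.

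Patj encodes a scaffold with many PDZ domains that links the Crumbs complex to tight junction proteins. Its normalized read counts were 5406 and 4888 in KO-labelled and 4975 and 5001 in WT-labelled medulla. The WT-labelled values lay between the KO-labelled ones. The log2 difference was 0.04, with a 95% interval from -0.15 to 0.24 (limma adjusted p = 0.679). The interval corresponds to folds between 0.902 and 1.18.

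The PAR complex made up 6 of the 10 genes and held both of the rises and 2 of the 3 falls. Paralogs of the same subunit differed in direction. Over all tested genes 26.3% were higher and 24.9% lower, and no such background was computed for families of paralogs. PAR6 is the adaptor that binds aPKC through one end and active CDC42 and Crumbs through its PDZ region, and mice have 3 genes for it. Pard6b gave normalized read counts of 4210 and 3850 in KO-labelled and 6028 and 7052 in WT-labelled medulla. The groups did not overlap, and the KO-labelled mean of 4030 ± 255 stood against a WT-labelled mean of 6540 ± 724 (SD, n = 2 each), a 0.616-fold level. The log2 difference was -0.70 (standard error 0.0999, limma adjusted p = 0.00132), larger in size than those of 67.9% of all tested genes.

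Pard6g went the other way. Its normalized read counts were 933 and 1080 in KO-labelled and 672 and 550 in WT-labelled medulla, again with no overlap. The KO-labelled mean was 1006 ± 104 and the WT-labelled mean 611 ± 86.3 (SD, n = 2 each), a 1.65-fold higher level and a log2 difference of 0.72 (standard error 0.142, limma adjusted p = 0.00515). Pard6a, the third paralog, read 289 and 288 in KO-labelled and 337 and 436 in WT-labelled medulla. Its values did not overlap either, but its log2 difference of -0.41 did not pass the test (SE 0.173, unadjusted p = 0.04996, limma adjusted p = 0.0864). It passed after quantile normalization (adjusted p = 0.0467) and without WT replicate 1 (adjusted p = 0.0495).

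The genes of the kinase in the complex also differed in direction, with the call of Prkci close to the threshold. Prkci encodes aPKC iota and Prkcz aPKC zeta, the other atypical isoform, whose gene also yields a short brain form from an internal start that a whole-gene count includes. Prkcz gave normalized read counts of 1011 and 978 in KO-labelled and 1461 and 1471 in WT-labelled medulla. Replicates lay close together and the groups far apart, with a KO-labelled mean of 995 ± 23.7 and a WT-labelled mean of 1466 ± 7.37 (SD, n = 2 each). The log2 difference was -0.56 (standard error 0.092, limma adjusted p = 0.00240).

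Prkci read 6565 and 6693 in KO-labelled and 5944 and 5225 in WT-labelled medulla. The 2 groups did not overlap, but the gap between them was smaller than the distance between the WT-labelled libraries. The mean was 6629 ± 90.3 in KO-labelled and 5585 ± 508 in WT-labelled medulla (SD, n = 2 each), a 1.19-fold higher level. The log2 difference was 0.25 (standard error 0.087, limma adjusted p = 0.0475), close to the threshold. The call was lost without KO replicate 1 (adjusted p = 0.133), KO replicate 2 (0.167) or WT replicate 2 (0.191), and with edgeR's quasi-likelihood test on the recovered reads (0.0567). Among the 5 changed genes it lost its call under the most alternatives, 8 of 16.

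Pard3 encodes PAR3, the scaffold that anchors the complex at the junction. It gave normalized read counts of 3889 and 4046 in KO-labelled and 4046 and 4259 in WT-labelled medulla. The upper KO-labelled and the lower WT-labelled values met at the boundary of the groups. The log2 difference was -0.07, with a 95% interval from -0.25 to 0.12 (limma adjusted p = 0.504).

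In the Scribble module neither member passed the test. Llgl2, the LLGL protein of epithelia that aPKC removes from the apical side, read 5651 and 4753 in KO-labelled and 5154 and 5532 in WT-labelled medulla. Both WT-labelled values lay between the KO-labelled ones, and the log2 difference was -0.04 with a 95% interval from -0.28 to 0.20 (limma adjusted p = 0.746). Scrib, the basolateral scaffold that gives the module its name, read 4433 and 4062 in KO-labelled and 4112 and 4192 in WT-labelled medulla. Its log2 difference was 0.03, with a 95% interval from -0.16 to 0.22 (limma adjusted p = 0.763). For Patj, Pard3, Llgl2 and Scrib the intervals reach no further than folds of 0.822 and 1.18. The differences of these 4 genes were smaller in size than those of the 3 PAR6 genes and Prkcz, but differences between genes were not tested.

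**Figure D2:**
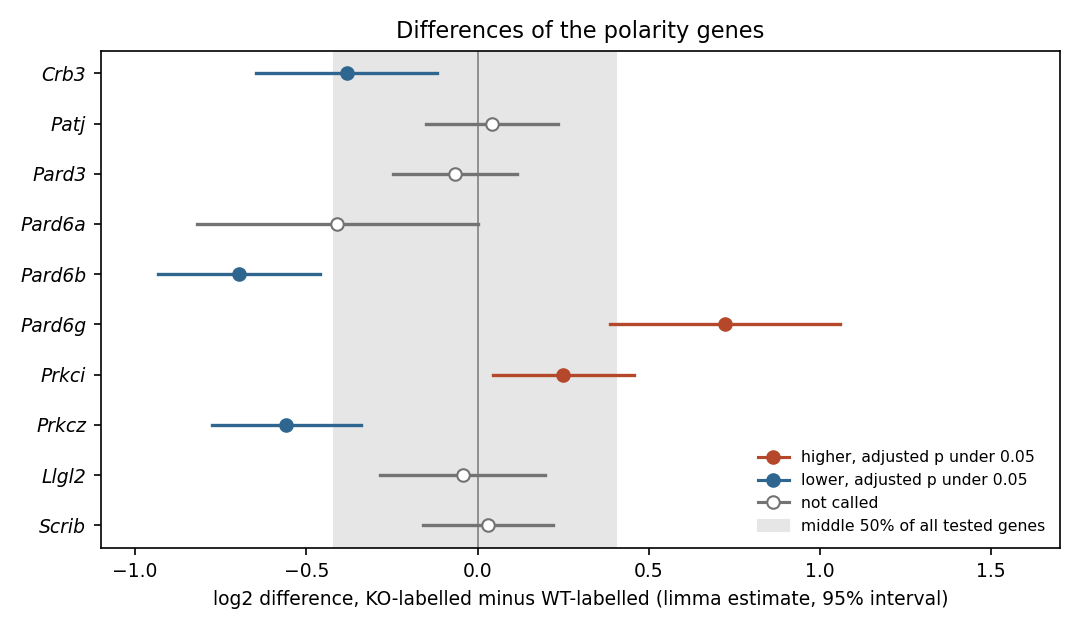
Log2 differences (KO-labelled minus WT-labelled, x axis) of the 10 polarity genes with their 95% intervals from limma; filled points passed the test and open points did not, and the grey band spans the middle 50% of all tested genes, from -0.419 to 0.403. Pard6b and Prkcz lie below the band and Pard6g above it, and the intervals of Patj, Pard3, Llgl2 and Scrib cross 0.

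Ratios between paralogs within a library do not depend on the scaling of the libraries. Pard6b exceeded Pard6g by 4.51-fold and 3.56-fold in normalized read counts in KO-labelled medulla and by 8.96-fold and 12.8-fold in WT-labelled medulla. The log2 ratio averaged 2.00 ± 0.24 in KO-labelled and 3.42 ± 0.36 in WT-labelled medulla (SD, n = 2 each), a difference of -1.42. Prkci exceeded Prkcz by 6.49-fold and 6.84-fold in KO-labelled and by 4.07-fold and 3.55-fold in WT-labelled medulla, and this log2 ratio averaged 2.74 ± 0.054 in KO-labelled and 1.93 ± 0.139 in WT-labelled medulla (SD, n = 2 each), a difference of 0.81. Pard6b over Pard6a moved less, with a difference of -0.29 in the log2 ratio. In each of these 3 ratios the groups did not overlap and the exact two-sided permutation test gave p = 0.333, the smallest value that 2 libraries against 2 allow.

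Expressed per kilobase of exon, the family make-up was as follows. Pard6b made up 72.1% and 68.3% of the summed PAR6 level in KO-labelled and 80.6% and 82.2% in WT-labelled medulla. The share of Pard6g was 17.3% and 20.7% in KO-labelled and 9.70% and 6.92% in WT-labelled medulla, while that of Pard6a was 10.6% and 10.99% in KO-labelled against 9.68% and 10.9% in WT-labelled medulla. Pard6b led the PAR6 genes in all 4 libraries, and Pard6g came next in both KO-labelled ones. The second place in WT replicate 1 depended on the length used, since with the longest coding transcript Pard6a made up 11.8% and Pard6g 9.48% there. The summed PAR6 level was 1688 ± 42.1 per kb in KO-labelled and 2363 ± 230 per kb in WT-labelled medulla (SD, n = 2 each).

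For aPKC, Prkci made up 88.1% and 88.6% of the summed level per kb in KO-labelled and 82.2% and 80.2% in WT-labelled medulla, and Prkcz the rest. The summed aPKC level was 1352 ± 12.5 per kb in KO-labelled and 1238 ± 90.4 per kb in WT-labelled medulla (SD, n = 2 each). With the longest coding transcript as the length, the mean share of Prkcz was 14.7% in KO-labelled and 23.3% in WT-labelled medulla, in place of 11.7% in KO-labelled and 18.8% in WT-labelled medulla by the union of exons.

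**Figure D3:**
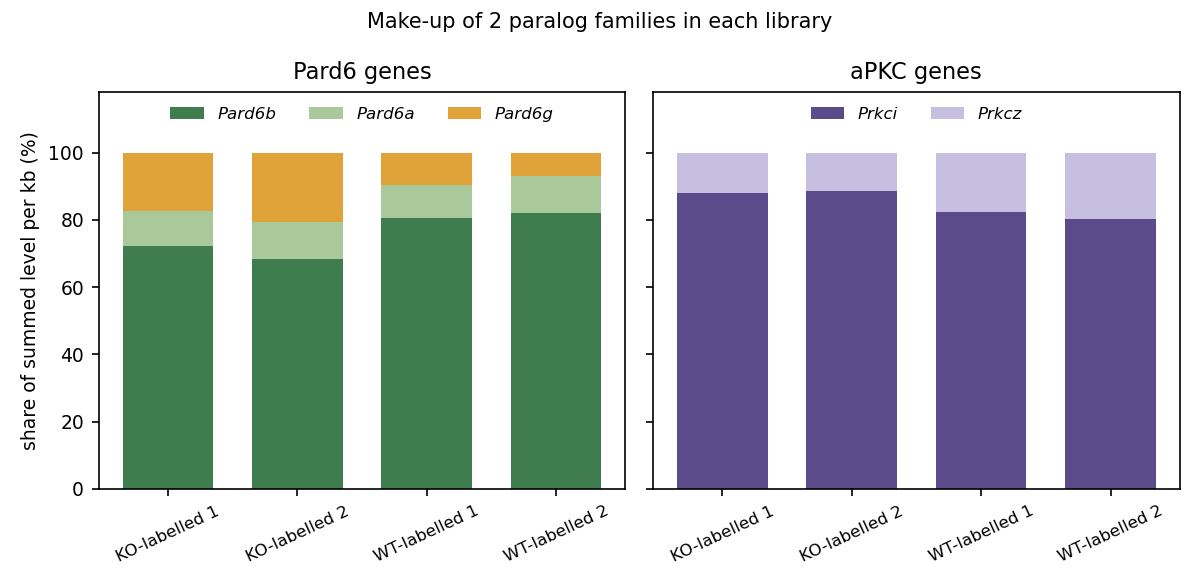
Stacked bars show the share (%) of each paralog in the summed level per kb of exon of the PAR6 genes (left panel) and the aPKC genes (right panel), 1 bar per library. The Pard6g part is 17.3% and 20.7% in KO-labelled against 9.70% and 6.92% in WT-labelled medulla, and the Prkcz part is smaller in KO-labelled medulla.

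The order of the genes by level per kb of exon also differed between the groups. In the KO-labelled libraries the highest were Prkci at 1194 ± 16.3, Pard6b at 1186 ± 74.96 and Llgl2 at 1074 ± 131, whose ranges overlapped from one to the next, followed by Crb3 at 900 ± 98.2 (SD, n = 2). In the WT-labelled libraries Pard6b led at 1924 ± 213, above the overlapping Crb3 (1171 ± 92.1), Llgl2 (1103 ± 55.1) and Prkci (1006 ± 91.6). Scrib and Patj came next in both groups, at 658 and 393 per kb in KO-labelled and 643 and 381 per kb in WT-labelled medulla. The lowest place was that of Prkcz in KO-labelled medulla (157 ± 3.75 per kb) and of Pard6g in WT-labelled medulla (194 ± 27.4 per kb). By the longest coding transcript the lowest gene in KO-labelled medulla was Pard6a (227 per kb) and the highest was Llgl2 (1440 per kb). By that length Pard3 (714.1 per kb) lay between Scrib (741.5 per kb) and Patj (679.5 per kb) in WT-labelled medulla.

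Partners of the 3 complexes were read from lists chosen by name. Of all tested genes 51.2% were called. The share was 61.5% for Crumbs partners, 53.8% for PAR partners, 54.5% for Scribble partners and 55.6% for PAR-1 and LKB1 kinases. It was 63.6% for tight junction scaffolds, 61.1% for apical linkers and trafficking and 64.3% for planar cell polarity genes. Of 13 partners of the Crumbs complex, 3 rose, 5 fell and 5 did not pass the test, with a median log2 difference of -0.33, and 2 were called lower with no variance trend. Pals1 (Mpp5 in the annotation), the adaptor between CRB3 and PATJ, fell to 4142 and 4441 normalized read counts in KO-labelled medulla, against 6447 and 6170 in WT-labelled medulla (log2 difference -0.56, SE 0.078, limma adjusted p = 0.00119). Its values did not overlap between groups. The FERM proteins Epb41l4b and Epb41l5, the second of which binds Crumbs and limits its action, fell by log2 differences of -0.65 and -0.46 (adjusted p = 0.000676 and 0.00863), the call of Epb41l5 being lost with no variance trend (adjusted p = 0.0532). Amot, an angiomotin that binds PATJ, rose to 2572 and 2505 in KO-labelled medulla, against 1362 and 1196 in WT-labelled medulla (log2 difference 0.99, adjusted p = 0.000244).

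Among 13 partners of the PAR complex, 4 rose, 3 fell and 6 did not pass the test, with a median log2 difference of 0.16. Jam2, a junctional adhesion molecule of endothelium and epithelium whose family binds PAR3, had 1186 and 1229 normalized read counts in KO-labelled and 2384 and 2439 in WT-labelled medulla (log2 difference -0.997, SE 0.085, limma adjusted p = 0.000133). All 9 endothelial markers were also lower, with summed normalized counts of 27335 and 26058 in KO-labelled and 80192 and 81498 in WT-labelled medulla, and their part in the Jam2 difference was not tested. Pawr and Sqstm1 (p62), which bind aPKC, rose by log2 differences of 0.68 and 0.49 (adjusted p = 0.00177 and 0.00396).

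Of the 12 Scribble module partners, 11 were tested, of which 3 rose, 3 fell and 5 did not pass the test, with a median of -0.05. Dlg2, a DLG scaffold best known from synapses, fell to 330 and 432 in KO-labelled medulla, against 698 and 727 in WT-labelled medulla (log2 difference -0.91, SE 0.160, limma adjusted p = 0.00315). Llgl1, the paralog of Llgl2, read 3280 and 2951 in KO-labelled and 2364 and 2454 in WT-labelled medulla, without overlap (log2 difference 0.37, adjusted p = 0.0114). The calls of Llgl1, Git1 (0.33) and Lrrc1 (-0.30) were each lost with no variance trend and without KO replicate 1. Under each of 3 settings (no variance trend, without KO replicate 1, without WT replicate 2), 1 partner was called higher and 1 lower, without KO replicate 2 it was 2 higher and 1 lower, and without WT replicate 1 it was 1 higher and 2 lower. Lrrc7, at no more than 5.36 normalized read counts in any library, was below the filter and was not tested.

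The PAR-1 (MARK) kinases, which aPKC keeps off the apical side, and the LKB1 kinase complex that activates them were read together, and 2 of 9 rose and 3 fell (median -0.10). Leaving out KO replicate 1, KO replicate 2 or WT replicate 1 left 1 called higher and 1 lower, and 1 was called lower with no variance trend. Cab39l, an MO25 scaffold of LKB1, fell to 4020 and 3485 in KO-labelled medulla, against 10015 and 9237 in WT-labelled medulla (log2 difference -1.36, SE 0.095, limma adjusted p = 6.21e-05). Mark1 rose by 0.52 (adjusted p = 0.00490) and the pseudokinase gene Strada by 0.44 (adjusted p = 0.0136). The call of Strada was lost without KO replicate 1 (0.0604), KO replicate 2 (0.0580) or WT replicate 1 (0.0645). Cab39, with a log2 difference of -0.25 (adjusted p = 0.0306), was called in 10 of 16 alternatives.

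Tight junctions seal the border between the apical and basolateral membranes, and the genes listed as their scaffolds also include junction membrane proteins. Of 11 scaffolds 3 rose and 4 fell (median -0.03), and 1 was called higher without KO replicate 1, without WT replicate 2 or with no variance trend. Cgnl1, paracingulin, fell to 13145 and 12186 in KO-labelled medulla, against 39906 and 45348 in WT-labelled medulla (log2 difference -1.75, SE 0.097, limma adjusted p = 2.63e-05). Ocln, occludin, and Magi3 fell by -0.69 each (adjusted p = 0.000623 and 0.000381). Of 18 genes of apical linkers and trafficking 4 rose and 7 fell (median 0.01). Nherf2, an apical PDZ adaptor listed as Slc9a3r2, fell by -1.45 and Rdx, radixin, by -0.83, while Prom1, a protein of apical protrusions, rose by 1.38 and Sytl2, a RAB27 effector, by 0.72 (adjusted p = 1.88e-05, 0.000423, 3.11e-05 and 0.000361).

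Of 15 planar cell polarity genes, which orient cells within the plane of the tubule wall, 14 were tested, and 6 rose and 3 fell (median 0.27). Dvl1 and Dvl3, which encode Dishevelled adaptors, fell by -1.11 and -0.48, and Prickle1 and Fzd3 rose by 0.79 and 0.64 (limma adjusted p = 0.000106, 0.00199, 0.000676 and 0.00129). With no variance trend 3 genes of the list rose.

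**Figure D4:**
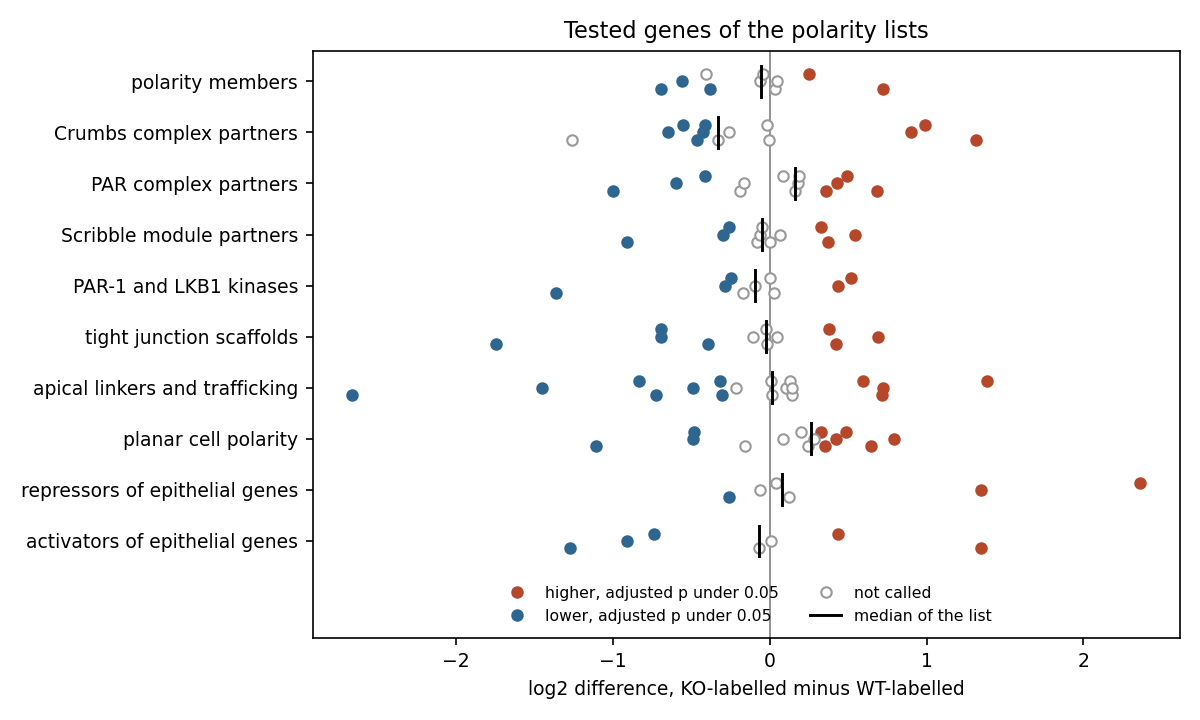
Log2 differences (KO-labelled minus WT-labelled, x axis) of every tested gene in the polarity list and in 9 related lists, 1 row per list; filled points passed the test and vertical bars are list medians. The medians lie between -0.33 and 0.27, and each list holds genes that rose and genes that fell.

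Transcription factors that bind or act on promoters of epithelial genes were read because of the E-boxes shown above. In human and canine epithelial lines, Snail and ZEB1 are known to lower CRB3 transcripts. Snai1 gave normalized read counts of 603 and 479 in KO-labelled and 485 and 502 in WT-labelled medulla (limma adjusted p = 0.523), and Snai2 had 1250 and 1521 in KO-labelled against 1455 and 1238 in WT-labelled medulla (adjusted p = 0.823). Zeb2 did not pass the test either (log2 difference -0.06, adjusted p = 0.734), and Zeb1 had a log2 difference of -0.26 (adjusted p = 0.0432) that was called in 9 of 16 alternatives. Twist1 rose to 505 and 498 in KO-labelled medulla, against 187 and 207 in WT-labelled medulla (log2 difference 1.35, adjusted p = 0.000416), and the low-count Twist2 rose by 2.36 (adjusted p = 0.00297). Both are genes of mesenchyme. Of 10 fibroblast and pericyte markers 6 rose, 1 fell (Rgs5, log2 difference -1.38) and 3 did not pass the test (Pdgfra, Pdgfrb and Dcn), with summed counts of 489385 and 568311 in KO-labelled and 198407 and 206467 in WT-labelled medulla. Without the 3 collagen genes Col1a1, Col1a2 and Col3a1 the sums were 73402 and 89394 in KO-labelled and 53740 and 56442 in WT-labelled medulla. The part of those cells in the Twist differences was not tested. Which cells held the Snai and Zeb transcripts, and any link of these to Crb3, was also not tested.

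Of 7 regulators listed as favouring the epithelial state, 2 rose and 3 fell, 71.4% called against 51.2% of all tested genes. Elf3 rose by a log2 difference of 1.34 and the splicing regulator Esrp1 by 0.43, while its paralog Esrp2 fell by -1.28 and Ovol1 by -0.91 (limma adjusted p = 0.000764, 0.0100, 0.000264 and 0.00282). The call of Esrp1 was lost without KO replicate 1 (adjusted p = 0.0756). Grhl1 fell by -0.74 (adjusted p = 0.0136), a call lost without KO replicate 1 (0.0589) or WT replicate 1 (0.0798). Grhl2 had a log2 difference of 0.005 (adjusted p = 0.972) and Ovol2 one of -0.07 (adjusted p = 0.764).

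Markers of most cell types also moved with the groups. The share called was 40% for podocytes and 42.9% for tubule epithelium, against 51.2% over all tested genes. In the other marker lists it ran from 70% (fibroblasts and pericytes) to 100% (urothelium and endothelium). Summed normalized counts of the 9 thick ascending limb markers were 256598 and 178313 in KO-labelled and 482979 and 507796 in WT-labelled medulla, with 7 lower and 1 higher. Umod, which did not pass the test, made up most of both KO-labelled sums. It gave 203680 and 138033 in KO-labelled and 136828 and 143709 in WT-labelled medulla. Principal cell markers (7 of 9 lower) summed to 23556 and 18402 in KO-labelled and 59460 and 70237 in WT-labelled medulla. Intercalated cell markers (7 of 9 lower) summed to 9125 and 7681 in KO-labelled and 22340 and 23948 in WT-labelled medulla. Thin limb markers (1 higher and 5 lower of 7) summed to 67505 and 49458 in KO-labelled and 130172 and 158427 in WT-labelled medulla. Those of the proximal tubule, a segment of cortex and outer medulla (8 of 9 lower), summed to 33681 and 59893 in KO-labelled and 152942 and 103125 in WT-labelled medulla. Kap alone made up most of each of these sums, with 25130 and 42716 in KO-labelled and 118424 and 58779 in WT-labelled medulla. All 7 urothelial markers were lower, with sums of 813 and 488 in KO-labelled and 4385 and 4095 in WT-labelled medulla. Podocyte markers (2 of 5 lower) summed to 2785 and 3262 in KO-labelled and 3912 and 4531 in WT-labelled medulla. Markers shared by all tubule epithelium summed to 140260 and 122459 in KO-labelled and 152846 and 173323 in WT-labelled medulla. The lower sum rested on Cdh16: without it, the other 6 summed to 98803 and 84774 in KO-labelled and 68496 and 73569 in WT-labelled medulla, and the median log2 difference of all 7 was 0.18. Of the 7, Cdh16 fell and Krt8 and Krt18 rose, and Epcam and Cdh1 did not pass the test (limma adjusted p = 0.09999 and 0.449). Macrophage and other leukocyte markers summed to 46831 and 46461 in KO-labelled and 10066 and 9791 in WT-labelled medulla, 9 of 11 being higher. Cd3e and Ms4a1, which mark T and B cells, stayed between 6.96 and 19.7 normalized counts in all libraries. Their part, and that of the tubule segments, in the differences of Pard6b, Pard6g, Prkci, Prkcz and Crb3 was not tested.

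Calls of single polarity genes under 16 alternative settings are shown next. Pard6b, Pard6g and Prkcz passed the test with the same sign in all 16 of them. Pard6b ranged from -0.81 to -0.58, Pard6g from 0.58 to 0.87 and Prkcz from -0.58 to -0.53 on the log2 scale.

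**Figure D5:**
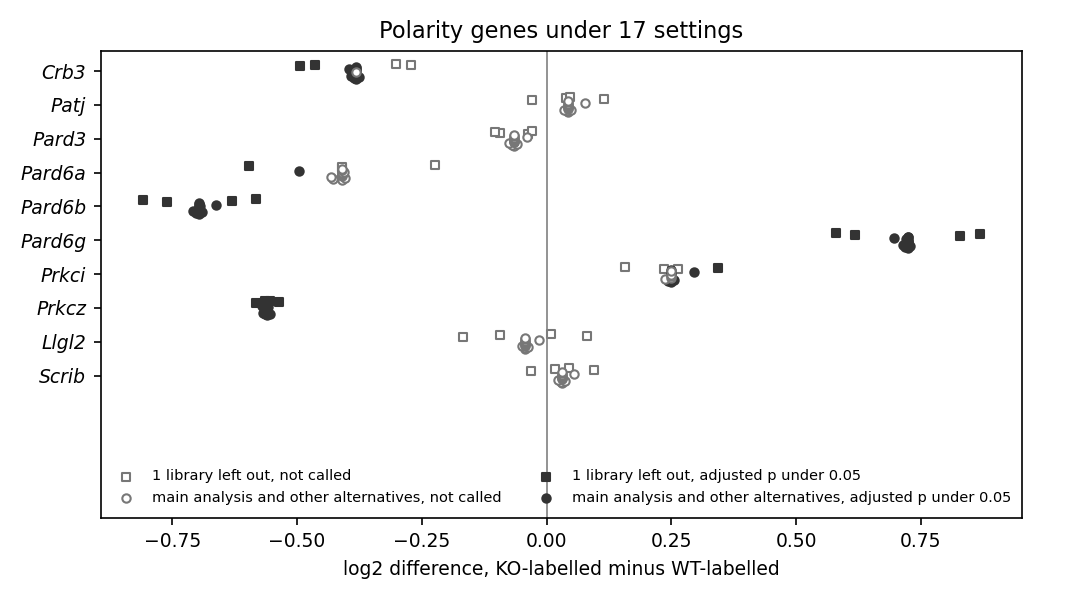
Log2 differences (KO-labelled minus WT-labelled, x axis) of the 10 polarity genes under the main analysis and 16 alternatives; squares leave out 1 library, and filled symbols passed the test. Pard6b, Pard6g and Prkcz are filled throughout, Crb3 and Prkci in part, and Patj, Llgl2 and Scrib lie on both sides of 0.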

How the data were processed

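The authors deposited 1 table of normalized read counts per gene (Entrez ID) and library, a signal made by dividing counts by 1 size factor per library; this was read from the values, 100% of which were whole multiples of 1 step within 0.001. The tools named in the submitters' processing notes are featureCounts 2.0.1, DESeq2 2.11.40.7, HISAT2 2.2.1 and fastp 0.20.1, with the builds mm10 and GRCm38. The sources used here do not give the annotation, the strand setting or the handling of multi-mapping reads. Groups came from the sample titles.

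Log2(value + 1) was tested with limma 3.58.1 (R 4.3.3; variance trend, two-sided) for the 16253 of 27179 genes whose mean reached 10, and p-values were adjusted over all of them by the Benjamini-Hochberg method. The fit had 2 residual degrees of freedom, 6.96 after pooling across genes. A positive log2 difference means a higher level in KO-labelled libraries. The p-values rest on the spread between these 4 animals within their groups, drawn in part from other genes. With 1 library per mouse it includes the spread between libraries. The alternatives changed the pseudocount, the filter, the scaling or the variance model, added a replicate block, left out each library, or used edgeR 4.0.16 or DESeq2 1.42.0 on recovered reads. The tests were also run on simulated counts of 15815 genes, of which 100 changed by a log2 of 1 and 99 by 2. There limma recovered 81% and 97% of these, and 5.9% of its calls were false. Far fewer genes changed in the simulation than the 51.2% called in these data. Symbols came from RefSeq GRCm38.p6 (25275 IDs matched) and exonic lengths from GENCODE M21 (union of exons). Named were all members, up to 4 called genes with the smallest adjusted p per related list, all regulators of epithelial genes, and Actr3. A few genes that this rule names are not reported here. Cdh16, Krt8, Krt18, Epcam, Cdh1, Umod, Cd3e, Ms4a1, Lrrc7, Rgs5, Pdgfra, Pdgfrb, Dcn, Col1a1, Col1a2 and Col3a1 were named after their values were seen. So were Kap and the thin limb markers. Members and lists were chosen with earlier results of these data known.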

Additional observations from a re-analysis of the deposited data

How the results depend on the processing

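Of the 10 polarity genes, 2 were called higher in the main analysis and 1 at a filter of a mean of 1, with no filter, with no variance trend, with edgeR and with the replicate block, Prkci being the gene lost each time; leaving out each library gave 1 to 2. Its adjusted p was 0.0558, 0.0703, 0.135, 0.0567 and 0.0897 in that order. The replicate numbers did not pair the libraries (correlation of deviations -0.056 between same-numbered libraries), and under the replicate block 3810 genes in all were higher and 3619 lower, against 4277 and 4051. On recovered reads edgeR called 4190 higher and 4113 lower. Values close to 0 changed sign. Without 1 library, Patj ranged from -0.0292 to 0.116, Llgl2 from -0.168 to 0.0819, Scrib from -0.0313 to 0.0945, Snai1 from -0.0433 to 0.289, Snai2 from -0.103 to 0.18, Zeb2 from -0.283 to 0.159, Ovol2 from -0.19 to 0.0509 and Grhl2 from -0.093 to 0.103. Grhl2 was also at -0.00109 with DESeq2 and -0.00651 with edgeR. The cause was not tested. Of 288 counts in the related lists, 258 stayed within 1.5 times the main count, and with the replicate block 1 gene of the PAR-1 and LKB1 list was called lower, against 3. Alternatives for the related genes, for lengths and for marker sums were chosen after seeing the data. With 2 libraries per group, any difference within the interval of a gene that did not pass the test remains compatible with its values.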
